A study of Caenorhabditis elegans with 6 samples.

Results

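The genes described here are the numbered C-type lectin genes of Caenorhabditis elegans, taken as every row of the count table whose WormBase identifier carries a clec symbol with a number in the Ensembl annotation of WBcel235. There are 240 such genes among 46940 features, and all 240 are annotated as protein-coding. RNA came from synchronized whole worms of the wild-type strain N2, grown without treatment on nematode growth medium, with 3 libraries at day 10 and 3 at L4, the last larval stage. The ages were not bridged by a young adult sample, so changes of the larva-to-adult transition and of adult ageing cannot be told apart, and the event from which day 10 is counted is not given in the sources used here. In RNA from whole animals, fewer cells of a type and less RNA per cell cannot be told apart either.

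C-type lectins are proteins with the C-type lectin-like domain, a fold that in its classical form binds sugars with the help of calcium. The worm has a very large set of them, many predicted to be secreted, and a number of those made in the intestine are switched on by infection in a pattern that depends on the pathogen. Other members are made elsewhere. The products of clec-87 and clec-88, also named cpg-5 and cpg-6, were found among the worm's chondroitin proteoglycans, a class that includes eggshell proteins, and clec-38 is known from axon guidance. Most members have no described role, and none is given for them below.

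Whole-table read counts ranged from 19576201 to 25616846 per library. Across all genes tested, log2 CPM (counts scaled to a common library total) correlated at 0.986 to 0.995 between day 10 libraries and at 0.995 to 0.996 between L4 libraries (Pearson, across genes, which are not independent replicates). Day 10 replicate 3 stood somewhat apart from the other day 10 libraries, and the calls of members that change without it are given below in both forms. The labels do not state that libraries came from separate cultures, and the p-values therefore reflect the spread among these 6 samples, which may be technical. Tissue markers gave the setting. The summed level of 10 intestinal marker genes was 3241 to 3300 FPKM in L4 and 521 to 700 FPKM at day 10, with all 10 lower and none at 0 counts. The summed level of 10 oocyte and eggshell genes was 283 to 303 FPKM in L4 and 6453 to 8702 FPKM at day 10, with all 10 higher. All 8 sperm markers were lower at day 10, from 1480 to 1533 summed FPKM in L4 to 28.5 to 45.9, and all 8 epidermal markers were lower, from 6493 to 6822 to 37.2 to 44.2. The part of these tissue differences in the results below was not tested.

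Among the C-type lectins, a few members held most of the summed level at each age, and these were largely different genes. Most of the measurable family was lower at day 10 than in L4. Of the 240 members, 109 held enough counts to be tested by edgeR's quasi-likelihood test. At an adjusted p under 0.05, 24 of the 109 had a higher level at day 10, 70 had a lower level, and 15 did not pass. The background is large, since 85.4% of all 15956 genes tested passed, 40.5% higher and 45.0% lower. The members' share that passed, 86.2%, was near that background. The direction differed from it, with 22.02% of the tested members higher and 64.2% lower. The median log2 fold change of the tested members was −1.45, also with the 5 genes at 0 counts in an age set to their bound, beside −0.16 over all genes tested. The median of all genes depends on the scaling, and it was −0.62 with upper-quartile factors in place of TMM factors, where that of the members was −1.91. Of the 109, 36 passed the filter on low counts in all libraries of L4 only and 10 at day 10 only. For such genes the filter favoured a difference in that direction in advance, though it did not fix the call. The shares over all genes tested were 15.9% and 7.56%. Of the 62 members past the filter in all libraries of both ages, 14 were higher and 38 lower, 22.6% and 61.3%, where the 12025 genes of the table that met the same condition gave 44.6% and 39.7%. The median over those 62 was −0.95, beside 0.11 over those 12025, and the median over the 222 members tested without a filter was −0.61.

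**Figure D1:**
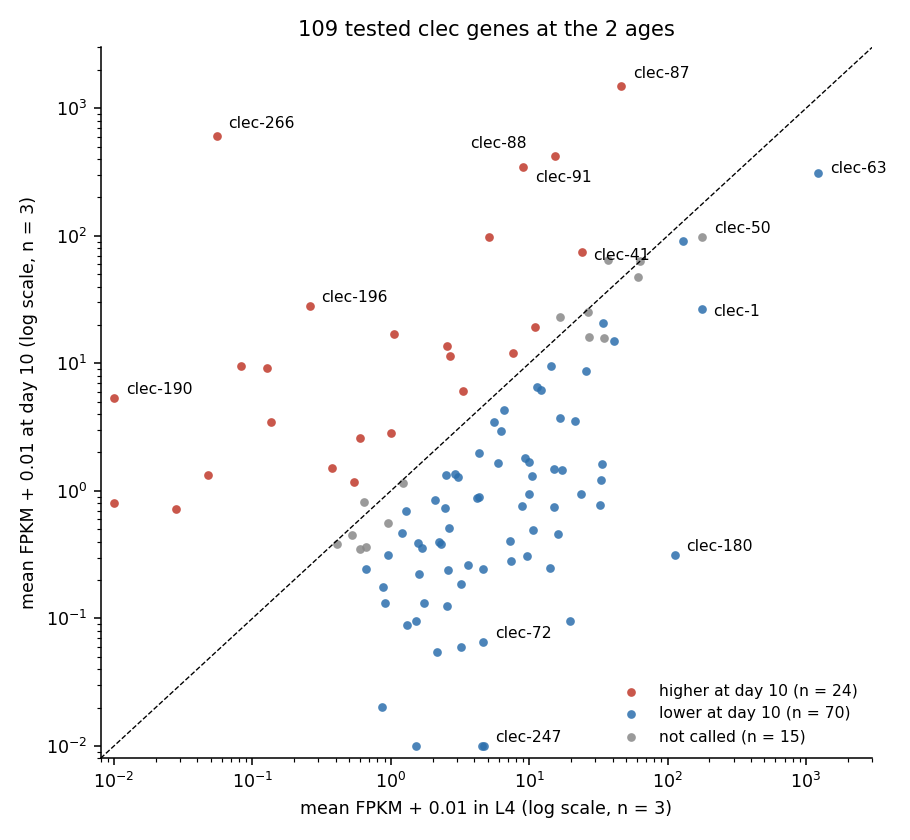
Mean level of each of the 109 tested C-type lectin genes in L4 (x axis) and at day 10 (y axis), in FPKM + 0.01 on log scales, n = 3 libraries per age. Each point is a gene coloured by its edgeR call and the dashed line marks equal levels. The 24 higher genes include clec-87, clec-266, clec-88 and clec-91 above 300 FPKM at day 10, and the 70 lower genes include clec-63, the most abundant member in L4.

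The sizes of the changes were also wide. Among called members, 21 had a level at least 2-fold higher at day 10 and 61 at least 2-fold lower, 19.3% and 56.0% of those tested, beside 29.1% and 37.2% of all genes tested. The log2 fold changes of the called members ran from 0.63 upwards, with a median of 4.47, and from −0.53 downwards, with a median of −2.78. With the members at 0 counts in an age set to their bound, these medians were 4.32 and −2.78. The ages did not overlap for 93 of the 109, 85.3%, which is near the 87.6% of all genes tested.

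Levels of different genes are set side by side here in FPKM, which divides counts by gene length and library total. The summed FPKM of all members was 4204, 4171 and 3970 in the day 10 libraries and 2863, 2784 and 2815 in the L4 libraries. Every day 10 library was above every L4 library, a difference of 0.54 on the log2 scale (two-sided exact permutation test, p = 0.1, the smallest that 3 against 3 allows). In CPM, which ignores length, the sums overlapped, at 4260, 4119 and 3493 at day 10 against 3564, 3579 and 3552 in L4, with a log2 difference of 0.15 (two-sided exact permutation test, p = 0.4).

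The genes that made up most of that sum differed between the ages. In L4 a single gene, clec-63, made up 42.9% to 43.8% of the summed FPKM, and the next were clec-50 at a mean of 6.27%, clec-1 at 6.24%, clec-150 at 4.58%, clec-180 at 3.99% and clec-65 at 2.22%. At day 10, clec-87 made up 35.6% to 37.3%, clec-266 10.3% to 20.5%, clec-88 9.71% to 11.1%, clec-91 7.91% to 8.89%, clec-63 4.20% to 9.76% and clec-50 1.18% to 3.38%. The 6 leading members held 80.0% of the sum at day 10 and 66.6% in L4, and only clec-63 and clec-50 were among the 6 of both ages. Fewer members were expressed at a substantial level at day 10: 25 had a mean of at least 10 FPKM there and 36 in L4, and 57 and 86 had a mean of at least 1 FPKM. Members with any count ran the other way, 169 to 184 in the day 10 libraries and 161 to 163 in the L4 libraries. Such numbers were not taken over all genes.

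**Figure D2:**
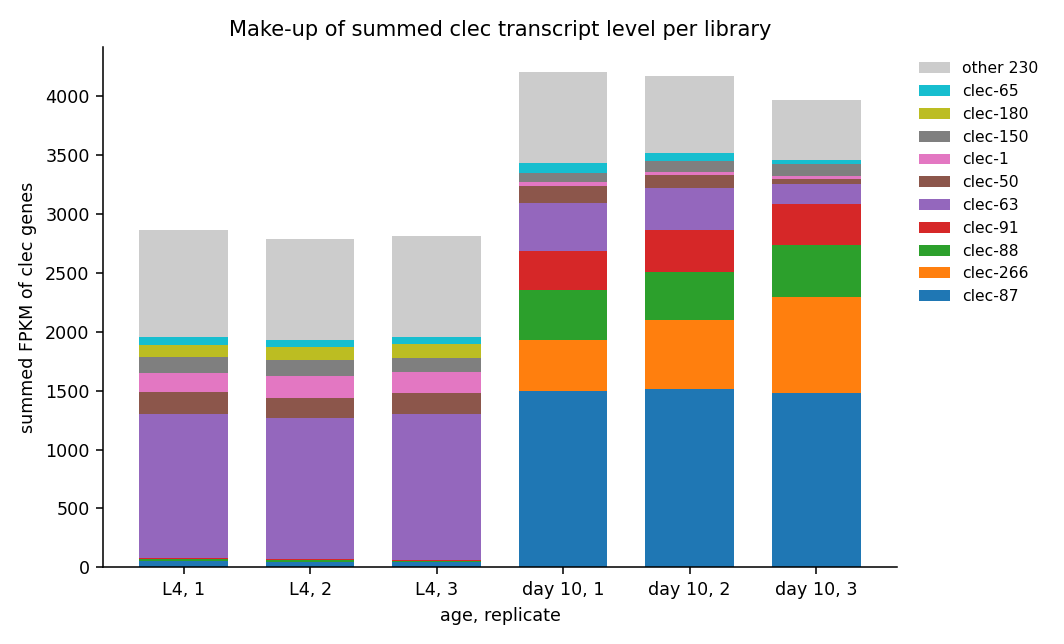
Summed FPKM of all 240 C-type lectin genes in each library (y axis), with 1 bar per library of L4 and day 10 and the 10 leading members in colour. The largest single part of the bars of L4 (2784 to 2863) is clec-63. Those of day 10 (3970 to 4204) are filled mostly by clec-87, clec-266, clec-88 and clec-91.

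The highest member at day 10 was clec-87 (WBGene00007709, chromosome I, 10184462 to 10185520, minus strand), whose protein of 233 residues is the proteoglycan also called CPG-5. Its level was 1364, 1376 and 1261 CPM in day 10 replicates 1, 2 and 3 and 44.96, 40.7 and 38.6 CPM in L4 replicates 1, 2 and 3. The libraries of the ages were far apart and those within an age close together, and the log2 fold change was 5.01 ± 0.08 (SE; edgeR's adjusted p = 5.1e-10). The related proteoglycan gene clec-88 (WBGene00019606, chromosome II, 6365722 to 6367002, plus strand; 243 residues) stood at 477, 452 and 460 CPM at day 10 and at 19.2, 16.5 and 15.4 CPM in L4. It rose by 4.76 ± 0.09 (edgeR's adjusted p = 9.8e-10). The gene clec-91 (WBGene00014117, chromosome I, 9126140 to 9127101, minus strand; 225 residues) stood at 289, 307 and 287 CPM at day 10 and at 8.02, 8.53 and 6.79 CPM in L4, a rise of 5.24 ± 0.10 (edgeR's adjusted p = 6.9e-10). In each of these genes the highest day 10 library held 1.05 to 1.09 times the lowest, beside a median of 1.16 over all genes with at least 5 CPM at day 10. In the same libraries the summed level of 5 marker genes of the spermatheca and uterus was 2316 to 2475 FPKM at day 10 and 50.5 to 58.2 in L4, with 3 of the 5 higher and 2 lower. The part of egg-producing tissue in these rises was not tested.

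The gene clec-266 (WBGene00016088, chromosome X, 6617393 to 6622915, minus strand; 248 residues) combined a high day 10 level with almost no reads in L4. It held 329, 445 and 580 CPM in day 10 replicates 1, 2 and 3, and 1, 0 and 1 counts in the L4 libraries. Day 10 replicate 3 was the highest here, at 1.76 times replicate 1. By FPKM it was second among members at day 10, at 611 ± 192 (SD, n = 3), after clec-87 at 1497 ± 18.3 and before clec-88 at 423 ± 17.04 and clec-91 at 347 ± 12.5. The spread of clec-266 reached down to the range of clec-88, so those neighbours in the order did not differ beyond their spread in every library.

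**Figure D3:**
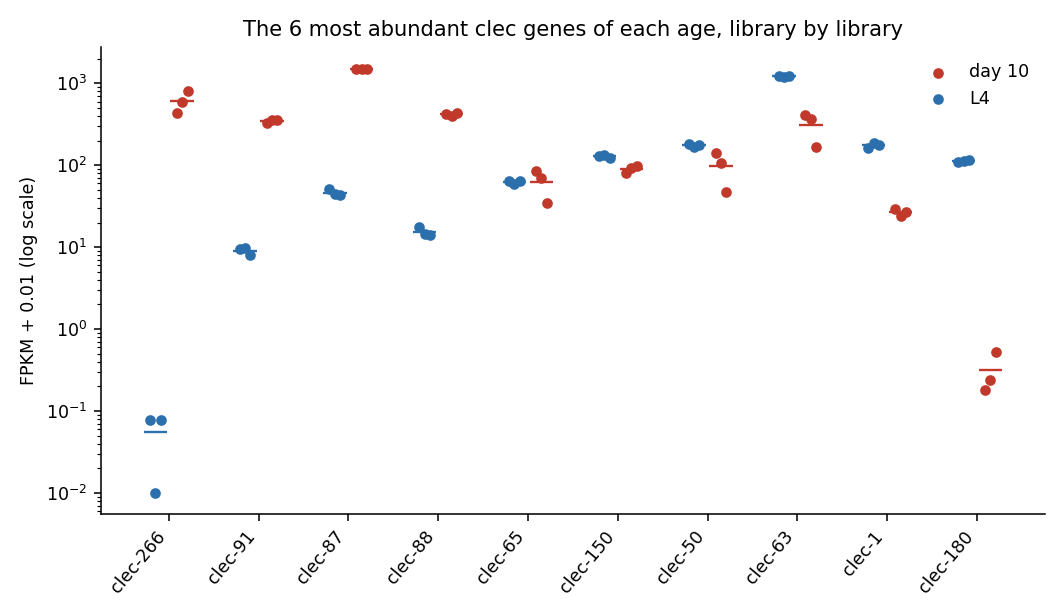
Level of the 10 C-type lectin genes that are among the 6 most abundant of either age, in FPKM + 0.01 on a log scale (y axis), with 1 point per library, lines at the age means, and genes ordered by log2 fold change. The day 10 points of clec-266, clec-91, clec-87 and clec-88 lie far above their L4 points, those of clec-65 spread around them, and those of clec-180 lie far below.

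Several other members that rose were rare or missing in L4, though not all, as clec-41 had a mean of 46.3 CPM there. The gene clec-190 held 117, 72 and 114 counts at day 10 and none in L4, at least 85.7-fold higher when L4 is set to 3 counts over its pooled libraries. The gene clec-11 held 36, 29 and 10 counts against none, at least 21.2-fold higher. For clec-97, 7.52, 7.38 and 4.02 CPM at day 10 stood against 3 counts in L4, and the pooled levels had a ratio of 133 (45.2 to 647 at 95%, counting error only). For each, all day 10 libraries lay above all L4 libraries. The counts of clec-190 and clec-11 already hold this, and for clec-97 it was a condition for describing it. Like clec-196, clec-222 and clec-223, described next, these genes did not pass the filter on low counts in all L4 libraries. For such genes the filter favoured a rise in advance. The shortest protein among the higher members, clec-196 with 153 residues, went from 2, 3 and 1 counts in L4 to 8.99, 9.97 and 12.1 CPM at day 10, a log2 fold change of 6.69 (6.41 to 6.98 without single libraries; edgeR's adjusted p = 1.1e-07). The neighbours clec-222 and clec-223 on chromosome V rose by 6.25 and 4.77 on the log2 scale, or 5.86 to 7.21 and 4.43 to 5.05 without single libraries (edgeR's adjusted p = 4.2e-06 and 5.4e-06), to 7.69 ± 2.65 and 11.1 ± 3.92 CPM. For clec-222 the fold change was 7.21 without L4 replicate 3, which held 4 of its 6 L4 counts. Likewise the pair clec-145 and clec-146 on chromosome II rose together, by 2.09 ± 0.23 and 4.23 ± 0.23 (edgeR's adjusted p = 2.6e-05 and 4.5e-07), and clec-146 reached 60.5 ± 15.9 CPM.

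Of the 24 members that rose, 5 stayed under 2 CPM at both ages and 5 reached a mean of at least 100 CPM at day 10. Those 5 were clec-87, clec-88, clec-266, clec-91 and clec-41.

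The largest falls among members with at least 5 CPM in L4 included that of clec-180 (WBGene00017991, chromosome IV, 7568893 to 7573766, plus strand), whose protein of 896 residues is among the long ones. It went from 226, 241 and 242 CPM in L4 to 0.358, 0.484 and 1.03 CPM at day 10, a log2 fold change of −8.56 (−9.09 to −8.26 without single libraries; edgeR's adjusted p = 1.3e-08). From the fifth most abundant member of L4, at 113 ± 3.58 FPKM, it became one of the near-silent ones, at 0.304 ± 0.185 FPKM. The short gene clec-45 (155 residues) held 9.59, 8.32 and 9.71 CPM in L4 and 0, 3 and 0 counts at day 10, and the pooled levels had a ratio of 227 (77.2 to 1103 at 95%, counting error only), so that the order of clec-45 and clec-180 is not settled. For clec-247, 83, 102 and 79 counts in L4 stood against none at day 10, at least 104-fold lower with day 10 set to 3 counts over its pooled libraries. For clec-230, with 62, 60 and 55 counts against none, the bound was at least 69.6-fold.

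Other large falls were found along several chromosomes. The gene clec-123 on chromosome II fell from 60.2 ± 3.41 to 1.39 ± 0.481 CPM (log2 fold change −5.43, or −5.58 to −5.15 without single libraries, edgeR's adjusted p = 3.3e-08). The genes clec-57 on V and clec-170 on IV fell, with log2 fold changes of −5.17 and −5.01, from 21.5 ± 0.728 and 15.8 ± 0.199 CPM in L4. The gene clec-117 fell by 5.83 on the log2 scale from 7.94 ± 0.721 CPM, and the value was −6.50 without day 10 replicate 1, which held 6 of its 10 day 10 counts. The neighbours clec-72 and clec-73 on IV fell, with log2 fold changes of −6.33 and −4.80, to 0.0810 ± 0.0414 and 2.22 ± 1.02 CPM. The L4 libraries of each of these genes lay above all its day 10 libraries, which was a condition for describing them here. Of them, clec-57, clec-170, clec-117 and clec-72 passed the filter on low counts in all libraries of L4 only. Markers of several larval and somatic tissues were lower in the same libraries, those of pharynx in 6 of 6 and those of body wall muscle in 5 of 5, and their part in these falls was not tested. Neuronal markers differed, with a summed level of 369 to 432 FPKM at day 10 and 280 to 284 FPKM in L4, 2 of 6 higher and 4 lower.

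Of the 6 most abundant L4 members, clec-180 fell as above, clec-50 and clec-65 did not pass, and 3 others fell. The leading one, clec-63 (WBGene00009394, chromosome II, 12895638 to 12897446, plus strand; 411 residues), held 1592, 1605 and 1612 CPM in L4 and 546, 480 and 208 CPM at day 10. It fell by 1.96 ± 0.44 on the log2 scale (edgeR's adjusted p = 0.0035), with tight L4 libraries and day 10 libraries that differed 2.63-fold. Without day 10 replicate 3 its log2 fold change was −1.62, still called. The gene clec-1 (WBGene00017772, chromosome V, 5700154 to 5701080, plus strand; 173 residues) went from 145.8, 176 and 163 CPM to 27.3, 22.6 and 23.6 CPM, a log2 fold change of −2.72 ± 0.11 (edgeR's adjusted p = 2.4e-08). The gene clec-150 on chromosome III changed little, from 155 ± 6.86 to 107 ± 8.04 CPM (−0.53 ± 0.07, edgeR's adjusted p = 8.3e-05), and its 6 libraries still did not overlap.

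Members known from infection moved in both directions. A list of 26 such members held 22 that were tested, of which 5 were higher, 10 lower and 7 did not pass, with a median log2 fold change of −0.78. Over all genes tested 40.5% were higher and 45.0% lower. The list's share that fell, 10 of 22, is near that background, while its share that rose, 5 of 22, is below it. The share that did not pass, 7 of 22, is above that of all genes tested, of which 85.4% passed. The list was chosen with earlier results of these data known. Among the members that other work has tied to defence against Bacillus thuringiensis, clec-41 rose, from 52.2, 43.4 and 43.4 CPM in L4 to 209, 150 and 70.7 CPM at day 10 (log2 fold change 1.63 ± 0.47, edgeR's adjusted p = 0.011). Without day 10 replicate 3 the log2 fold change of clec-41 was 1.98, still called. Another of them, clec-4, fell from 13.9 ± 2.95 to 2.33 ± 1.19 CPM (−2.57 ± 0.38, edgeR's adjusted p = 0.00013). Yet another, clec-42, did not pass, its day 10 level being 0.645 ± 0.131 CPM and its L4 level 0.705 ± 0.147 CPM (edgeR's adjusted p = 0.72).

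Of the genes induced by Microbacterium nematophilum, clec-17 and clec-86 fell, to 0.0669 ± 0.0615 and 0.874 ± 0.0887 CPM from 4.29 ± 0.326 and 9.05 ± 1.05 CPM. Their log2 fold changes were −5.88 and −3.36 (edgeR's adjusted p = 2.9e-06 and 5.2e-07). That of clec-17, with 2, 3 and 0 counts at day 10, ran from −6.52 (without day 10 replicate 2) to −5.32 without single libraries, and that of clec-86 from −3.47 to −3.27. The gene clec-60, of the same response and also of that to Staphylococcus aureus, held 4.89, 4.52 and 1.23 CPM at day 10 and 2.03, 1.11 and 0.604 CPM in L4. Its ages overlapped, and its call as higher (log2 fold change 1.51, or 1.18 to 2.02 without single libraries, edgeR's adjusted p = 0.043) was lost without L4 replicate 2 or 3 or day 10 replicate 1 or 2, at an adjusted p of 0.117 to 0.124. The calls of clec-82, clec-7 and clec-52, at log2 fold changes of 1.12, 0.87 and 0.80, and the call of clec-49 as lower, at −0.81, were also lost without single libraries. That was the case for clec-82 without any library but day 10 replicate 3, for clec-49 without any L4 library, for clec-52 without L4 replicate 2 or 3 and for clec-7 without L4 replicate 3. With upper-quartile factors in place of TMM scaling, clec-52, clec-60, clec-7 and clec-82 were no longer called.

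Firmer falls on that list were those of clec-47, clec-187, clec-71 and clec-67, at log2 fold changes of −3.37, −2.99, −2.37 and −1.85 (edgeR's adjusted p = 1.8e-05, 2e-06, 0.0005 and 0.0014). The gene clec-84 fell by 0.72 (edgeR's adjusted p = 0.007). The 4 listed members without enough counts for the test were clec-172, clec-70, clec-174 and clec-39, all under 1 CPM in every library. The axon guidance gene clec-38 was likewise too low to test, at 5, 3 and 16 counts at day 10 and 2, 0 and 3 in L4.

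A second pattern within the family was the spread between day 10 libraries. Of the 36 members with a mean of at least 5 CPM at day 10, 17, or 47.2%, had day 10 libraries at least 2-fold apart, beside 5.86% of the 8680 genes of the table at that level. In all 17 the lowest library was day 10 replicate 3, and in 16 the highest was replicate 1. Among all genes that far apart, replicate 3 was the lowest in 62.5%. The 17 were otherwise steady in L4, where the libraries of those with a mean of at least 5 CPM differed by at most 1.35-fold. Of the 17, 10 are on the list of members known from infection, a list chosen with earlier results of these data known. In all, 15 members of that list had a mean of at least 2 CPM at day 10.

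The widest was clec-85, a gene used as a readout of the p38 pathway of intestinal immunity. It held 33.2, 23.9 and 7.26 CPM in day 10 replicates 1, 2 and 3 and 21.7, 22.2 and 22.9 CPM in L4. The day 10 libraries lay on both sides of L4, so that its mean hardly differed (log2 fold change −0.05 ± 0.64, edgeR's adjusted p = 0.93). Without day 10 replicate 3 the value was 0.38 and passed, at an adjusted p of 0.013. The same held for clec-65, at 104, 84.8 and 39.7 CPM against 76.3, 73.0 and 76.3 CPM, with a log2 fold change of 0.02 (edgeR's adjusted p = 0.96) that was 0.35 without that library and then passed.

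Its neighbour clec-62 held 114.8, 93.0 and 37.5 CPM at day 10 and 49.5, 45.5 and 44.6 CPM in L4 and did not pass (log2 fold change 0.81 ± 0.49, edgeR's adjusted p = 0.11), whereas the value without day 10 replicate 3 was 1.18 and passed. The genes clec-50, clec-66 and clec-186 did not pass either, at −0.84, −0.75 and −1.14 (edgeR's adjusted p = 0.11, 0.16 and 0.053). Without day 10 replicate 3 these were −0.47, −0.36 and −0.75 and all passed, clec-66 and clec-186 also doing so without replicate 1. For clec-50 the values were 152, 113 and 46.8 CPM at day 10, below the 180 to 192 CPM of the L4 libraries in each. The gene clec-173, at 19.6, 13.1 and 6.81 CPM against 8.79 to 10.6 CPM in L4, had a log2 fold change of 0.46 (edgeR's adjusted p = 0.24) that was 0.80 without day 10 replicate 3 and then passed. All 8 members at that level that were not called are among the 17, and of these clec-83 alone did not pass without that library either. Without day 10 replicate 3, 29 members were higher and 72 lower, 24 and 67 of them also in the full set.

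The summed level of the 10 intestinal markers was 665, 700 and 521 FPKM in day 10 replicates 1, 2 and 3, lowest in the same library as the 17 members. That of the 10 oocyte and eggshell genes was 8702, 8349 and 6453 FPKM, also lowest in replicate 3 and highest in replicate 1. The sums for epidermis and pharynx were lowest in replicate 3 as well. Those for sperm, spermatheca and uterus, body wall muscle and neurons were highest there. The highest library held 4.57 times the lowest for clec-85, 3.71 times for clec-186, 3.25 times for clec-50 and 2.63 times for clec-63. The part of intestinal RNA, or of RNA from any other tissue, in this spread was not tested. A few members ran the other way, with replicate 3 the highest, namely clec-266, clec-78, clec-146, clec-264 and clec-196.

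**Figure D4:**
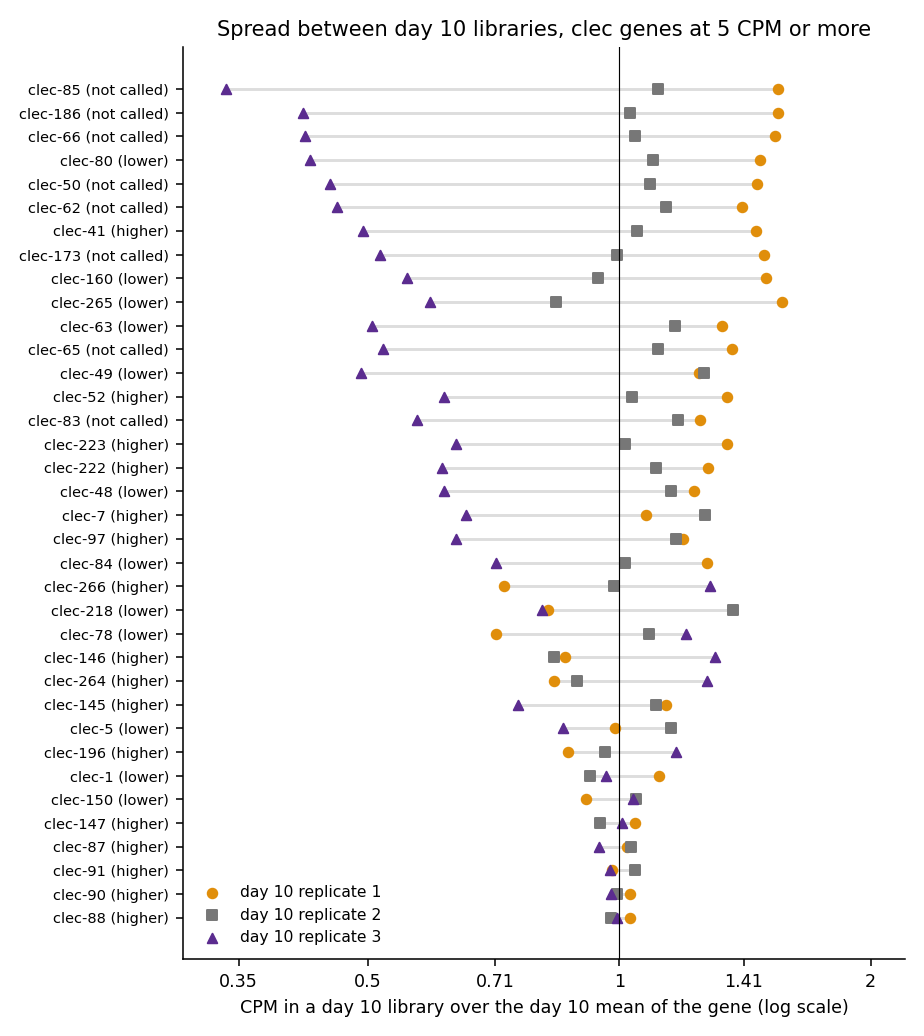
CPM of each day 10 library divided by the day 10 mean of the gene (x axis, log scale) for the 36 C-type lectin genes with at least 5 CPM at day 10 (y axis, with the call), ordered by spread. Each gene has 3 points, 1 per library. Replicate 3 lies lowest in all genes whose libraries are at least 2-fold apart, while the libraries of clec-87, clec-88 and clec-91 nearly coincide.

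C-type lectin genes are often neighbours on a chromosome, and 155 of the 240 lie in 47 runs in which the gap between neighbouring members is at most 10000 bases. Chromosome V holds 86 members, IV 53, II 48, I 36, III 14 and X 3. Of the tested members, 26 were lower and 5 higher on V, 20 and 5 on IV, 13 and 6 on II, 6 and 0 on III, 2 and 1 on X, and 3 and 7 on I. Over all genes tested on the same chromosomes, the share higher was 49% on I, 43.9% on II and 50% on III. It was 39.1% on IV, 34.9% on V and 25.8% on X. The share lower was 36.8% on III, 41.6% on II and between these values on I. On IV, V and X the share lower was 48%, 48.4% and 56.4%. No difference between chromosomes was tested.

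Of 19 runs with at least 2 tested members, 6 had all tested members lower, 2 had all higher, and 4 held calls in both directions. Over all tested members 64.2% were lower and 22.02% higher. Whether neighbours moved together more than other members was not tested. The longest run by tested members that fell together lies on chromosome IV, 3922165 to 3975721, where clec-67, clec-71, clec-72, clec-73 and clec-79 all fell and the other 6 members were too low to test. On chromosome II, 12893062 to 12906644, the 5 genes clec-62 to clec-66 stand side by side with levels that differed widely. There clec-63 and clec-64 fell, with log2 fold changes of −1.96 and −5.50, and clec-62, clec-65 and clec-66 did not pass. In the pair clec-51 and clec-52 on IV, clec-51 fell by 3.57 on the log2 scale while clec-52 was called higher, with the reservation above. In the run clec-80 to clec-85 on IV, clec-80 and clec-84 fell, clec-82 was called higher with the same reservation, and clec-83 and clec-85 did not pass.

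**Figure D5:**
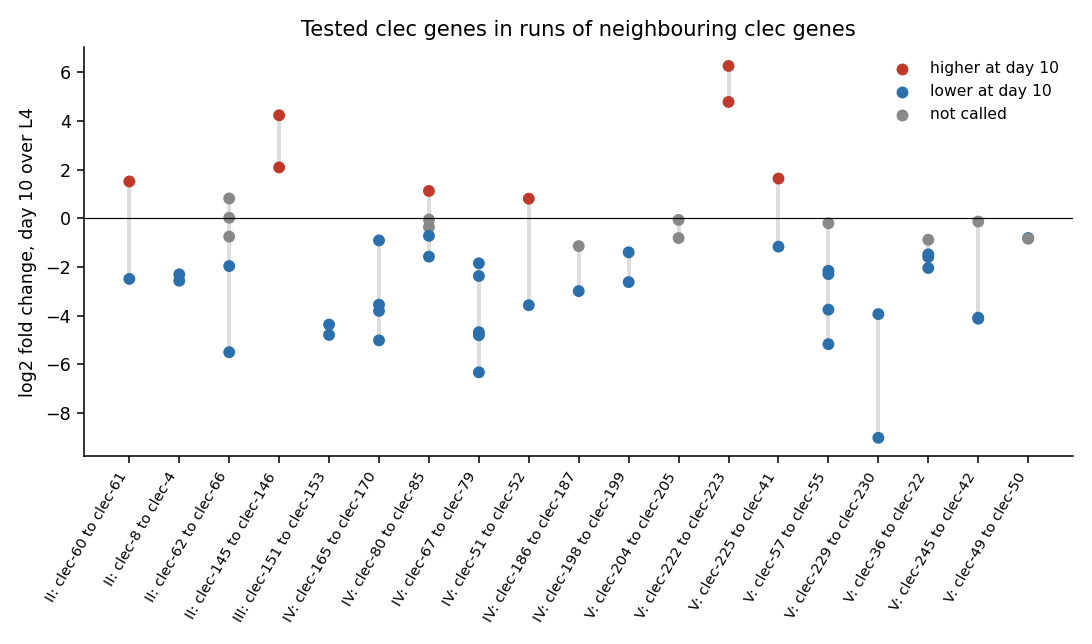
Log2 fold change, day 10 over L4 (y axis), of tested C-type lectin genes in the 19 runs of neighbouring members with at least 2 tested genes (x axis, named by chromosome and by the first and last tested gene). Each point is a gene coloured by its call. In 6 runs all tested genes fell, in 2 all rose and in 4 calls went both ways.

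The members that rose encode shorter proteins than those that fell. The median annotated length was 257.5 residues among the 24 higher members and 378.5 among the 70 lower ones, with 353 among the 15 that did not pass and 296 among the 131 untested. Proteins under 300 residues were encoded by 14 of the 24 and by 22 of the 70. No test was made of this difference, and the ranges overlap widely, from 153 to 1034 residues and from 155 to 3514 residues. Lengths were not taken over all higher and lower genes of the table. The longest, clec-78, fell by 1.33 ± 0.25 on the log2 scale (edgeR's adjusted p = 0.00026).

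Some members share exon sequence with another annotated gene, and whether the counting used strand is not given in the sources used here. Of the 24 higher members, 13 overlap an exon of another gene, against 4 of the 70 lower ones. Such overlap was not counted over all higher and lower genes of the table. Reads in the shared sequence were not measured, so only the partners' own levels are given. The partner of clec-87, iars-2, encoded on the other strand, fell from 114 ± 3.77 to 83.6 ± 4.69 CPM. The partner of clec-88 on the same strand, ctsa-4.1, fell from 138 ± 4.76 to 4.50 ± 0.664 CPM, and that of clec-91, ZK858.8 on the other strand, from 12.95 ± 1.08 to 0.499 ± 0.175 CPM. The partner of clec-266 on the other strand, kqt-1, rose from 2.89 ± 0.266 to 14.5 ± 6.78 CPM. The gene clec-140, at 0.550 ± 0.144 CPM at day 10, overlaps hmg-11 on the same strand, at 74.6 ± 13.6 CPM. The similarity of members to each other was not measured here, so reads shared between close copies cannot be separated.

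The regulators that control intestinal immune genes moved in both directions, in shares near those of all genes tested. Of 26 listed genes, 25 were tested, of which 10 were higher and 12 lower. Over all genes tested the shares were 40.5% and 45.0%. The median log2 fold change of the regulators was −0.07. In the p38 pathway, which controls clec-85 and other infection genes, the adaptor tir-1 rose from 24.5 ± 2.11 to 127 ± 59.0 CPM (2.37 ± 0.38, edgeR's adjusted p = 0.0013). The transcription factor atf-7 had a log2 fold change of 0.47 that was 0.02 with upper-quartile factors, and the kinase sek-1 fell by 0.37. The kinase nsy-1 had a log2 fold change of 0.40 that was −0.05 with upper-quartile factors. The p38 kinase pmk-1, with 30.4 ± 1.13 CPM at day 10 and 26.6 ± 0.196 CPM in L4, had one of 0.19 ± 0.03 (edgeR's adjusted p = 0.043) that was −0.26 with upper-quartile factors.

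In the TGF-beta pathway the ligand dbl-1 fell from 13.3 ± 0.288 to 6.40 ± 1.05 CPM (−1.06 ± 0.13, edgeR's adjusted p = 0.0002). Its receptor sma-6 and the Smads sma-2, sma-3 and sma-4 also fell, with log2 fold changes of −0.96, −1.23, −0.47 and −1.16. The negative regulator lon-2 rose by 1.29, and the receptor daf-4 had a log2 fold change of 0.51 that was 0.06 with upper-quartile factors. The insulin receptor daf-2 and the FOXO factor daf-16 rose by 1.55 and 0.79. The intestinal GATA factor elt-2 fell by 0.88. The receptor fshr-1 fell by 2.62, from 78.5 ± 1.70 to 12.8 ± 1.44 CPM, whereas the stress response factor skn-1 rose by 1.44. Small changes on this list depend on the scaling: with upper-quartile factors 6 were higher and 15 lower, and with DESeq2's size factors 11 and 8.

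The other 131 members did not pass the filter on low counts. Of these, 18 had no count in any library and 29 had 1 to 3 counts in all libraries together. The most counts that any of them held in a library was 35, and all of them together made up 0.308% of the counts of the family. Counts at day 10 were seen for 103 of the 131 and in L4 for 82, with 833 and 764 counts in sum. The highest was clec-232, with a mean of 0.814 CPM at day 10 and 0.0504 CPM in L4. The authors' deposited table gave 25 members with an adjusted p below 0.05 and a higher level at day 10, of which 22 were also called higher by edgeR here and 3 were not tested here. The authors' deposited table gave 70 such members with a lower level, of which 65 were also called lower here and 4 were not tested here. No member was called in opposite directions by the deposited table and by edgeR.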

How the data were processed

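RNA from whole wild-type N2 worms was sequenced from 3 samples at day 10 and 3 at L4, grouped by the age in their titles. The authors deposited raw read counts per gene, for which the submitters' processing notes name CASAVA 1.8, HISAT2 and HTSeq, FPKM values, and a comparison of the ages with group means in scaled counts (a signal), p-values and adjusted p-values. Genome build, annotation, strand setting and the authors' test are not given in the sources used here.

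Symbols, coordinates, coding length and exon overlap came from the Ensembl 115 annotation of WBcel235, which need not be the build used for counting. All 15956 genes past edgeR's default filter (10 counts at the median library size) were fitted with edgeR 4.0.16 in R 4.3.3 (TMM scaling, robust quasi-likelihood, age as the only term, Benjamini-Hochberg adjustment at 0.05 over all of them), and the rows of the 240 members were taken from that fit. Standard errors were taken from the within-age variance of log2(CPM + 0.5) and are printed for genes with at least 2 CPM at both ages; for rarer genes the range without single libraries is given. Folds against an age at 0 counts use 3 counts over its pooled libraries, and ratios against 1 to 3 counts carry an exact 95% interval, both covering counting error only. The summed level was tested by exact permutation of the libraries. The steps were tested on simulated counts.

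Members described singly were the 8 largest changes in each direction with at least 5 CPM in the higher age and no overlap, the 6 most abundant per age, 26 members known from infection, clec-38, and members whose sign turned with the scaling. Further members were named after their values were seen. Members and lists were chosen with earlier results of these data known. Motif searches in proteins and promoters, planned at first, were not made, since no sequence was used here. Alternatives tried were size factors from DESeq2, upper-quartile factors, other filters, DESeq2 1.42.0, a replicate block and each library left out.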

Additional observations from a re-analysis of the deposited data

How the results depend on the processing

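The counts of members and of all genes, higher and lower, and of regulators called in either direction stayed within 1.5 times its value under the alternatives run. Members higher numbered 19 to 30 and members lower 62 to 77 across scalings, filters and DESeq2, and 21 to 29 and 65 to 75 without single libraries; all genes ranged from 6349 to 6679 higher and 6893 to 7480 lower without single libraries. No member called higher or lower changed sign under any alternative, though 14 called members lost their call without 1 library or another. The summed FPKM difference was 0.53 to 0.57 on the log2 scale without single libraries. Without a filter on low counts 222 members were tested.

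Of the 15 members that were not called, 6 changed sign under some alternative. For clec-55 the log2 fold change was −0.21, and 0.23 without day 10 replicate 3. The log2 fold change of clec-126 was −0.11 with upper-quartile factors. That of clec-65 was −0.44 with upper-quartile factors, −0.0104 without a filter, −0.00184 with a filter at 1 CPM, −0.0801 with the replicate block, and −0.25 to 0.35 without single libraries. With DESeq2's size factors clec-85, clec-205 and clec-42 were at 0.115, 0.10 and 0.0273, with DESeq2's test at 0.115, 0.10 and 0.0304, and without single libraries at −0.50 to 0.38, −0.34 to 0.29 and −0.29 to 0.02.

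Same-numbered libraries of the ages deviated together at correlations of 0.0190 to 0.0204, under the 0.1 set for pairing, although each library correlated best with its own number. With the replicate number as a block, 23 members were higher and 68 lower, with clec-82, clec-165, clec-218 and clec-26 no longer called and clec-186 passing as lower. It changed no other call. Depth limits the 131 members that were not tested, of which 7 were called higher and 9 lower without a filter.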
